A study of Mus musculus with 2 samples.

Results

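The AP-1 subunit genes described here are 10 mouse genes: the Fos family genes Fos, Fosb, Fosl1 and Fosl2, the Jun family genes Jun, Junb and Jund, and the small Maf genes Maff, Mafk and Mafg. They were taken by name as every probe set whose platform annotation gave exactly 1 gene symbol and that symbol was one of the 10. This gave 13 probe sets out of 22626 without controls, and 10 genes out of 12393 with such a probe set. RNA came from NIH 3T3 cells, an established mouse embryonic fibroblast line grown in DMEM. One culture had been transfected with pHA-CMV-ATCE1-C-del, a plasmid for a C-terminally deleted form of the transcription factor ATCE1 that the design text calls nuclear. The other had received pHA-CMV, the same vector without insert. Both cultures were treated with Lipofectamine and both RNAs were extracted 48 hours after transfection, so the reagent, the vector backbone and the time are common to both arrays. No source used here gives the share of cells that took up either plasmid. A culture in which few cells changed strongly and one in which all cells changed slightly cannot be told apart in such bulk RNA. There was 1 array per group, so no value below has a replicate error, no test was made, and every fold compares these 2 arrays.

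AP-1 is a family of dimeric transcription factors whose subunits share a basic region that contacts DNA and a leucine zipper that joins the dimer. Fos proteins do not dimerise with themselves and bind DNA as partners of Jun proteins, whereas Jun proteins can also pair with each other and with ATF proteins. In fibroblasts several of these genes are immediate early genes, switched on minutes after serum or stress by serum response factor and CREB-type proteins at their promoters. The small Maf proteins have the same zipper architecture but no transactivation domain, and act mainly as partners of Nrf2-type and Bach factors. ATCE1, the product of Creb3l4, is itself a bZIP protein of the CREB family.

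The promoter windows of these genes are shown because CREB-type factors bind the cAMP response element, or CRE. RefSeq promoter sequences of the build GRCm38.p6, running from 250 bases before to 50 after a gene's start, were held for 9 of the 10 genes, with 3 starts for Maff and 1 for each other gene. Fosl1 is not in that table. On both strands, 4 motifs were searched: the full CRE TGACGTCA, its core TGACG, the AP-1 site TGANTCA, and the CArG box bound by serum response factor. Each full CRE also holds the core. The core stood in 6 of the 9 genes, or 7 of 11 promoters, against 20.8% of all 32851 promoters in the table and 27.2% of the 12567 promoters of genes on the array. The full CRE stood in 1 promoter, a start of Maff, against 1.79% of all promoters and 2.51% of those of genes on the array. The AP-1 site and the CArG box were in none of the 11 windows, against 7.81% and 1.63% of all promoters. Among promoters of genes on the array these shares were 6.45% and 1.47%. A match is a run of letters and not a demonstration of binding, and the absence of one concerns only this window. The Fos promoter is given whole before the start, because Fos was the only AP-1 subunit gene with a promoter in the table that passed 1.5-fold. It holds the core at 129 and at 66 bases before the start. The other lines give 30 bases around each match, with the matching letters in capitals and all sequences read 5′ to 3′ on the strand of the gene.

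Fos, chr12:85473640-85473889, plus strand: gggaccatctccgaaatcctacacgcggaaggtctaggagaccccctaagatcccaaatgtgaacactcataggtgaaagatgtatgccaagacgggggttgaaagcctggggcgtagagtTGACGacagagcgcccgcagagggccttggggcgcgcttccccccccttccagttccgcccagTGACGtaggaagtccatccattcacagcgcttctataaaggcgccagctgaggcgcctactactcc
Fosb, chr7:19310088-19310117, minus strand: tggagttgcgggTGACGcaagcgcgggggc
Junb, chr8:84978837-84978866, minus strand: gcttcctgacagTGACGcgagccgcctcct
Maff, chr15:79347480-79347509, plus strand: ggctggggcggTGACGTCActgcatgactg
Maff, chr15:79348268-79348297, plus strand: ccttccaccctcCGTCAtcctccccctttc
Mafk, chr5:139791483-139791512, plus strand: ggggcggggcggTGACGcgcttcgacgcgc
Mafg, chr11:120633552-120633581, minus strand: ccaaacatcatgTGACGtctgaggagcggc

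In these promoters the core lay 60 bases before the start in Fosb, 106 in Junb, 41 in Mafk and 22 in Mafg, the full CRE lay 29 bases before one start of Maff, and a further core on the opposite strand lay 122 bases before another. Jun, Jund and Fosl2 had no match to any of the 4 motifs in this window. The windows with a match therefore belong to genes from each of the 3 families.

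Values are linear MAS5 signals, which condense the probes of a probe set into 1 number. Signals near background vary by large factors, so each array was given a floor at its own median, 77.3 for ATCE1-C-del and 76.0 for empty vector. A probe set counted as measured where at least 1 array reached its floor. Where a single array reached it, the fold can only be stated as a minimum ("at least"), and where neither did, none is stated. Of 6807 measured genes, 48.0% had a higher and 52.0% a lower signal on the ATCE1-C-del array, with a median log2 ratio of -0.01. All 11 fibroblast markers on the array were measured, among them Col1a2, Vim and Thy1. None of the 7 epithelial, 5 endothelial and 5 muscle markers was, and 2 of 7 macrophage and 1 of 4 adipocyte markers were. Creb3l4 itself lay under both floors, at 18.0 with ATCE1-C-del against 20.7 with empty vector. No source used here says whether its probe set lies in the plasmid's transcript, so it does not check the labels.

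The Fos family held the 2 members that differed by at least 1.5-fold, Fosl1 and Fos, both higher with ATCE1-C-del. Fos was above the floor on that array alone, so it could only be given as higher. Over all measured genes, 0.911% were at least 1.5-fold higher. The other measured gene of the family, Fosl2, was 1.13-fold higher, and Fosb was below both floors. All 5 probe sets of the family had the higher deposited signal on the ATCE1-C-del array, as did 55.1% of all probe sets whose signals differ. Only 2 of the 5 were above the floor on both arrays.

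Fosl1 encodes Fra-1, a Fos protein without the C-terminal transactivation domain of Fos that accumulates in proliferating and transformed fibroblasts. Its brighter probe set, 1417487_at, read 398.8 with the ATCE1-C-del plasmid and 227.5 with the vector alone. Both signals are well above the floors, and the ratio of 1.75-fold (log2 0.81) placed Fosl1 at rank 10 of 6807 measured genes from the highest ratio. Its dimmer probe set, 1417488_at, annotated to the same sequence record, read 78.0 against 44.9. The first of these signals sits just at the floor and the second under it, so the dimmer set gives only a bound of at least 1.02-fold. Taken without the floor, its ratio of scaled signals was 1.73, next to 1.75 on the brighter set, but a signal this low does not carry a fold on its own. The mean floored log2 ratio of the 2 sets was 0.42. That is below the 1.5-fold line, but it includes the bound and is itself a minimum.

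Fos encodes c-Fos, the prototype of the family, whose RNA is normally short-lived after a stimulus. Its only probe set, 1423100_at, read 124.7 with ATCE1-C-del against 53.5 with empty vector. The control signal lies under its floor, so Fos was at least 1.64-fold higher (log2 at least 0.71). This bound stood at rank 21 of 6807, a rank that depends on the choice of floor. Fos entered the measured genes through the ATCE1-C-del array alone, and a gene that enters this way can only be given as higher. Without the floor the ratio was 2.32.

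Fosl2 encodes Fra-2, the relative of Fra-1 with slower induction. Its probe set read 102.5 against 90.2, or 1.13-fold higher, a log2 ratio of 0.18. That is smaller than 0.20, the SD of a single log2 ratio estimated from pairs of probe sets of one gene. Fosb, which like Fos carries a C-terminal activation domain, read 26.7 against 10.8. Both signals are deep under the floors, at the 36.7th and 26.8th percentiles of their arrays, and no fold is given for it.

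**Figure D1:**
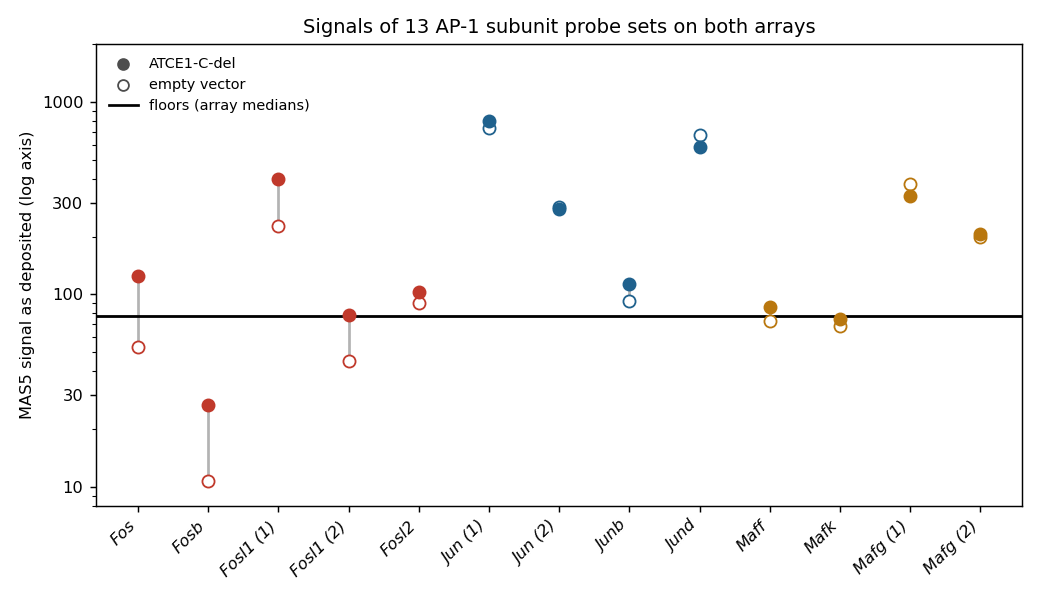
MAS5 signal as deposited, on a log axis, for the 13 probe sets of the 10 AP-1 subunit genes (red, Fos family; blue, Jun family; ochre, small Maf). Filled circles stand for the ATCE1-C-del array, open circles for the empty vector array, and the line for the array medians used as floors (77.3 and 76.0); (1) marks the brighter and (2) the dimmer probe set of a gene. The widest gaps are in Fos, Fosb and Fosl1, of which only the brighter Fosl1 set is above the floor on both arrays.

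The Jun family showed no member at 1.5-fold in either direction, and its 3 genes lay on both sides of 0. Jun encodes c-Jun, the main partner of Fos proteins and a target of JNK kinases. Its brighter probe set, 1417409_at, read 793.8 with ATCE1-C-del against 731.6 with empty vector, 1.08-fold higher. Its dimmer set, 1448694_at, read 277.4 against 284.0, 1.03-fold lower. The 2 sets differ by 0.15 in log2 ratio, less than the median difference of 0.17 among 2451 genes with such a pair. They lie on opposite sides of 0, each nearer to it than the SD of 0.20, so no direction can be given for Jun.

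Junb encodes a Jun protein that activates weakly and often restrains c-Jun. Its probe set read 113.2 with ATCE1-C-del against 92.3 with empty vector, 1.22-fold higher at a log2 ratio of 0.29. Jund, whose product is the constitutive Jun protein of resting fibroblasts, went the other way on the trimmed-mean scale at 583.5 against 675.0, 1.16-fold lower, a direction that turns under the scaling to hybridisation controls described further on. For scale, the pairs of probe sets of one gene put the SD of a single log2 ratio at 0.20. Jund at -0.21 and Junb at 0.29 lie just past this SD. Fosl1 lies far beyond it on its brighter set at 0.81, while its dimmer set gives only a bound of 0.04. How much separate cultures or transfections would differ is not part of that SD. It is also taken over all signal levels. Among genes with a mean signal under 150, where Junb lies, log2 ratios taken with the floor had an SD of 0.28.

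The small Maf genes also had no member at 1.5-fold. Maff, the most inducible of the 3 by stress, read 86.5 with ATCE1-C-del against 72.8 with empty vector. The control lies under its floor, so Maff was at least 1.14-fold higher. Mafk read 74.4 against 68.7, under both floors, and no fold is given. Mafg, a broadly expressed partner of Nrf2, had 2 probe sets that disagreed. The brighter, 1448916_at, read 324.6 against 375.6, 1.16-fold lower, and the dimmer, 1434054_at, read 205.1 against 198.5, 1.03-fold higher. Their log2 ratios differ by 0.26, more than in 68.3% of genes with such a pair, so the direction of Mafg depends on the probe set.

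Across all 3 families 8 of the 10 genes were measured, 6 on both arrays and 2, Fos and Maff, with a bound. Of these 8, 6 had a higher and 2 a lower signal with ATCE1-C-del, and 2 of 8 were at least 1.5-fold higher and 0 lower. Over all measured genes, 62 (0.911%) reached 1.5-fold as higher and 76 (1.12%) as lower. These became 48 and 90 when arrays were scaled by their medians and 408 and 13 with the hybridisation control scaling, and the members' counts stayed at 2 and 0 under both. The median log2 ratio was 0.18 over the measured members and -0.01 over all measured genes. Since Fos and Maff entered through the ATCE1-C-del array, these counts and this median describe the members and support nothing about them. By deposited signal, regardless of any floor, 10 of the 13 probe sets read higher on the ATCE1-C-del array. The 3 that read lower were one each of Jun and Mafg and that of Jund. Of all probe sets whose signals differ, 55.1% read higher on that array.

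How often a fold of this size occurred on these arrays differed with the signal level. Among 1399 genes with a mean signal under 150, where Fos, Fosl2, Junb and Maff lie, 2.22% were at least 1.5-fold higher and the SD of log2 ratios was 0.28. Among 1780 genes between 150 and 300, where no member lies, the share was 1.12% and the SD 0.25. Among 1662 genes between 300 and 600, where Mafg and, close to the lower edge, Fosl1 lie, 0.421% were that much higher and the SD was 0.22. Among 1966 genes over 600, where Jun and Jund lie, the share was 0.203% and the SD 0.19. Folds of this size were thus rarer at higher signals. The floor narrows the ratio of a gene with a signal under it, so the share and SD under 150 are partly set by the floor.

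**Figure D2:**
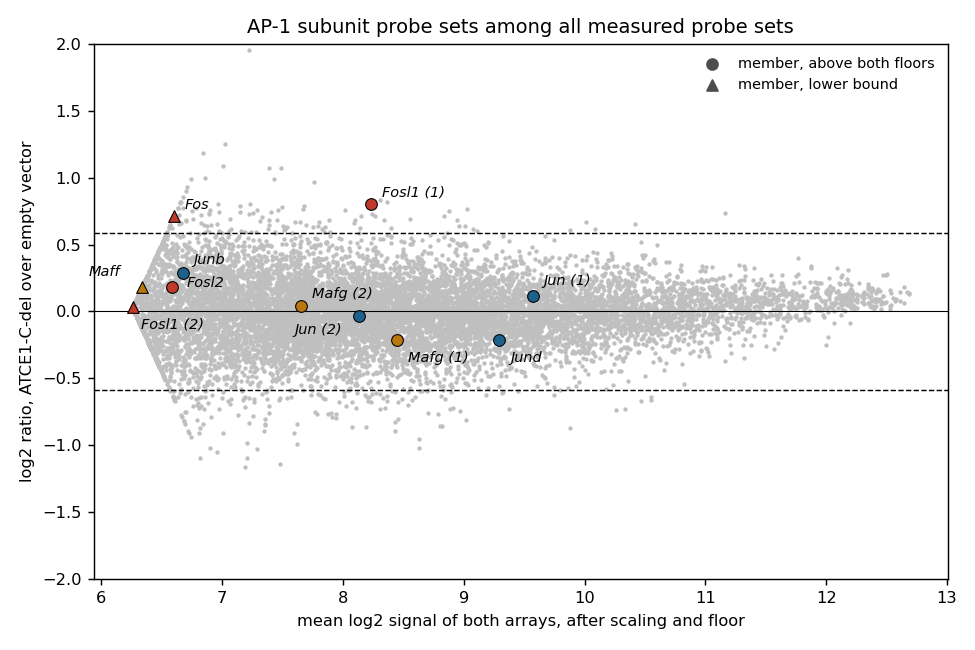
Log2 ratio (ATCE1-C-del divided by empty vector) against the mean log2 signal of both arrays, after scaling and floor, for all 11631 measured probe sets (grey) and for the measured AP-1 subunit probe sets (coloured as by family: red Fos, blue Jun, ochre small Maf). Circles are above both floors, triangles are lower bounds, dashed lines mark 1.5-fold, and 2 probe sets beyond a log2 ratio of 2 are not drawn. Fosl1 (1) at 0.81 and Fos at 0.71 or more lie above the upper line, and the other members lie between the lines.

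The genes whose 2 signals lay nearest to those of Fosl1, by Euclidean distance of log2 signals among 6513 other genes above both floors, were Bad, Ptgs2, Mbd3 and Urm1. Bad, which encodes a BH3-only promoter of apoptosis, read 394.7 with ATCE1-C-del against 240.3 with empty vector, at a distance of 0.08. Ptgs2, which encodes cyclooxygenase-2, read 365.4 against 221.9, at a distance of 0.13. Mbd3, a subunit of the NuRD complex, read 343.5 against 216.9 and Urm1, a ubiquitin-like modifier, 389.1 against 266.4, both at 0.23. Over 2 arrays a likeness of this kind says only that both numbers are similar.

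The other bZIP genes that pair with AP-1 or small Maf proteins lay on both sides of 0. Of 17 on the array 9 were measured, 3 higher and 6 lower, 1 at least 1.5-fold higher and 0 lower, and the median log2 ratio was -0.08. The shares over all measured genes were 48.0% higher and 52.0% lower, and 0.911% and 1.12% at 1.5-fold. This list and those below were chosen with earlier results of these data known. Atf3, a stress-induced partner of Jun proteins, was 2.13-fold higher, at 187.9 with ATCE1-C-del against 88.1. It rests on 1 probe set, and its control signal lies close above the floor of 76.0. The other 8 were within 1.5-fold, from Atf7 at a log2 ratio of 0.18 and Atf4 at 0.06 to Atf2, the classical ATF partner of c-Jun, at -0.29 and Jdp2, a repressor that dimerises with Jun, at -0.30. The other measured probe set of Atf4 lay at -0.22. Of the other 3 measured probe sets of Atf2, 1 went the opposite way, at 0.26. The partners of small Maf proteins lay at -0.02 for Nfe2l2, which encodes Nrf2, at -0.25 for the repressor gene Bach1, whose other probe set was at 0.03, and at -0.29 for Nfe2l1. The genes of this list other than Atf3 were picked with their values in view.

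Among kinases, transcription factors and phosphatases that act on AP-1 from upstream, 26 of 31 genes were measured, with a median log2 ratio of -0.02. At 1.5-fold, 1 passed as higher and 1 as lower, beside 0.911% and 1.12% of all measured genes. The higher one was Dusp6, an ERK phosphatase that ERK signalling itself induces, at 155.4 against 102.1 or 1.52-fold. The lower one was Itch, a ubiquitin ligase that targets c-Jun and JunB for degradation, at 129.8 against 198.7 or 1.53-fold. Itch and Dusp6 each rest on a single probe set, and with scaling by array medians Dusp6 no longer passed. Chosen after their values were seen, Srf, which encodes serum response factor, was 1.18-fold higher (0.35 in log2 ratio on a second set), and the JNK genes Mapk8 and Mapk9 were at 0.05 and -0.06.

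Of genes known as AP-1 targets in fibroblasts, a list chosen with earlier results of these data known, 28 of 37 were measured. Of these, 21 were higher and 7 lower, and the median log2 ratio was 0.11. Of all measured genes 48.0% were higher and 52.0% lower. At 1.5-fold, 3 targets were higher and 0 lower, beside 0.911% and 1.12% of all measured genes. Plaur, the urokinase receptor, read 164.6 with ATCE1-C-del against 82.2 with empty vector, just under 2-fold higher on a probe set that can match several transcripts. Plaur has no other probe set, and its control signal lies close above the floor of 76.0. Hmga2, an architectural chromatin protein, read 2967.2 against 1780.7, 1.66-fold higher. Its further probe sets lay at log2 ratios of 0.15 and 0.65. Ptgs2 was 1.64-fold higher and its second set lay at 0.97. The collagenase and stromelysin genes Mmp13, Mmp3 and Mmp10, which AP-1 controls in activated fibroblasts, lay under the floors on both arrays, as did Mmp9 and Plau, which encodes urokinase. A further 3 genes, Il6, Hbegf and Lif, were above the floor with ATCE1-C-del only, so that they too could only be given as higher, with bounds between 1.03-fold and 1.16-fold. These 8 genes were picked with their values in view.

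Targets of small Maf and Nrf2 dimers showed no member at 1.5-fold on the probe set that stands for the gene. Of 15 on the array 14 were measured, 8 higher and 6 lower, beside 48.0% and 52.0% of all measured genes. The shares of all measured genes past 1.5-fold were 0.911% higher and 1.12% lower. The median log2 ratio of these targets was 0.01. The highest were Nqo1, a quinone reductase, at 0.55 and the heme oxygenase gene Hmox1 at 0.17. The lowest were the glutathione transferase genes Gstm1 at -0.48, with its other probe sets at -0.71 and -0.46, and Gsta4 at -0.18. Dimmer probe sets of Txnrd1, Me1 and Srxn1, picked with their values in view, lay higher, at 0.62, 0.38 and 0.37, while the brightest sets of these genes lay at -0.01, 0.02 and -0.05. The remaining measured sets were at least 0.04 for Txnrd1 and at 0.23 for Srxn1.

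Of immediate early genes other than AP-1 subunits, a list chosen with earlier results of these data known, more were higher than lower. Of all measured genes 48.0% were higher and 52.0% lower. Of 27 on the array 23 were measured, 17 were higher and 6 lower, and the median log2 ratio was 0.23 against -0.01 over all measured genes. In either direction 0 passed 1.5-fold, beside 0.911% of all measured genes as higher and 1.12% as lower. Without probe sets that can match several transcripts this median was 0.07. Among genes above both floors the highest were the antiproliferative gene Btg2 at 0.50 and the orphan nuclear receptor gene Nr4a1 at 0.50. Its relative Nr4a2, at 106.7 against 51.7, was above the floor with ATCE1-C-del only and is a lower bound of 0.49, so its ratio could lie above both. The lowest were Gadd45a, a DNA damage-inducible gene, at -0.40 and Zfp36l1, which encodes an RNA-destabilising zinc finger protein, at -0.29, with its other probe set at -0.20. Several genes stand in more than 1 of these lists, among them Srf and Hmox1.

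**Figure D3:**
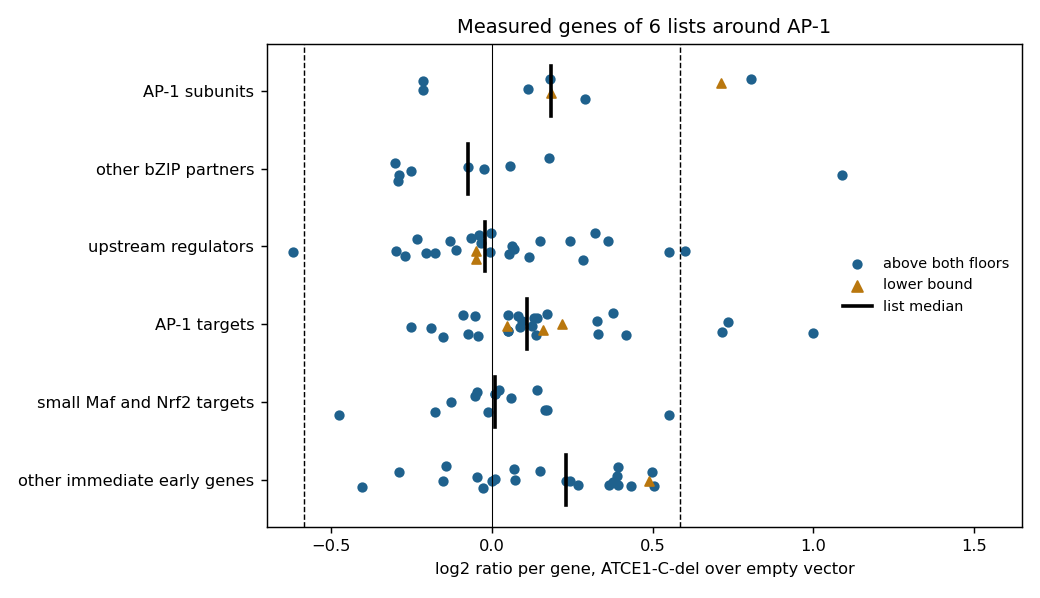
Log2 ratio (ATCE1-C-del divided by empty vector) for each measured gene (1 point per gene, spread vertically for clarity) in 6 lists around AP-1; triangles are lower bounds, black bars are list medians and dashed lines mark 1.5-fold. List medians run from -0.08 for other bZIP partners to 0.23 for other immediate early genes, and the AP-1 subunits lie at 0.18.

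The sizes given here are relative to the other transcripts on each array. The 18 probe sets for hybridisation spike-ins stood at a median log2 ratio of -0.25, and scaling to them moved the median of all measured genes from -0.01 to 0.24. On that scale all 8 measured members were higher and Jund and Mafg turned sign, to 0.04 each, while Fosl1 stood at 1.06 and Fos at 0.96 or more. Under a floor at the 75th percentile Fos was not measured, and it has no second probe set. Under the 12 settings that give it a value, the one used here among them, it was at least 1.5-fold higher, but a choice among probe sets cannot move a gene with 1. Fosl1 was at least 1.5-fold higher under 11 of 14, but several of these could not move it. With a floor at the 25th percentile, a common floor or no floor it stayed at 0.81. Leaving out probe sets that can match several transcripts also left it there. The 3 exceptions for Fosl1 were its dimmer probe set at 0.04, the mean of its probe sets at 0.42 and a floor at the 75th percentile at 0.34. In all 3 a control signal was raised to a floor, so these values are minimums.

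**Figure D4:**
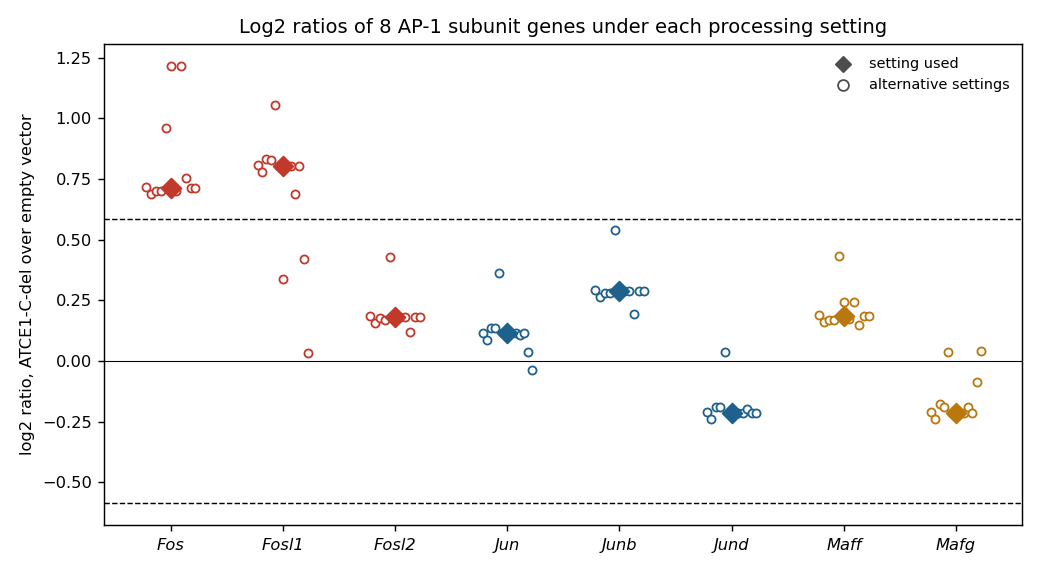
Log2 ratio (ATCE1-C-del divided by empty vector) for the 8 measured AP-1 subunit genes under the setting used (diamonds) and under each alternative scaling, floor, log scale and choice of probe set (open circles, spread sideways); dashed lines mark 1.5-fold. The values of Fos run from 0.69 to 1.22 and those of Fosl1 from 0.04 to 1.06, and the circles of Jund and Mafg lie mostly below 0, from -0.24 to 0.04.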

How the data were processed

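The authors deposited 1 intensity per probe set and array, a linear MAS5 signal going by the tool listed in the submitters' processing notes; its version, target value and detection calls are unknown here. The platform's annotation named 20393 of 22690 probe sets with a single symbol, 691 with more than 1 and 1606 with no symbol. Names were updated through Entrez IDs, which changed 0 symbols.

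Arrays were scaled by the mean between the 2nd and 98th percentiles over the 22626 non-control probe sets (248.9 and 248.3) to a common value, floored at their own medians and log2 transformed. The brightest probe set stood for a gene. A fold of 1.5 was the call rule, and no test was made. The number of arrays limits the precision. The members, lists, motifs and naming rule were chosen with earlier results of these data known. All members were named, plus, for each other list, genes past 1.5-fold or otherwise the 2 highest and 2 lowest, and the 4 genes nearest to Fosl1. Other genes named were picked with their values in view. The scripts were tested on simulated data. Python 3.11.15, numpy 2.4.6, pandas 2.3.3, statsmodels 0.14.6 and matplotlib 3.10.9 were used. Alternatives covered scaling, floor, log scale, threshold and probe sets.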

Additional observations from a re-analysis of the deposited data

How the results depend on the processing

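No paired analysis was possible because each group had 1 array, and for the same reason no replicate could be left out. Signals as deposited, quantile normalization, lowess, a common floor for both arrays and leaving out probe sets that can match several transcripts kept every count of genes past 1.5-fold within 1.5 times its value and moved each list's median log2 ratio by less than 0.20, the SD of a single ratio. Within that limit, leaving out such probe sets lowered the immediate early median from 0.23 to 0.07 and the AP-1 target median from 0.11 to 0.07. Under array medians, 0 upstream regulators were past the threshold as higher. With scaling to the hybridisation controls, 0 members were lower, and the median log2 ratio was 0.43 for the members, 0.17 for bZIP partners, 0.23 for upstream regulators, 0.36 for AP-1 targets, 0.26 for Nrf2 targets, 0.48 for other immediate early genes and 0.24 for all genes. On that scale 3 upstream regulators, 5 AP-1 targets, 1 Nrf2 target, 9 immediate early genes and 408 of all genes were at least 1.5-fold higher, and 0 upstream regulators and 13 of all genes lower. The change of level is built into this scaling, which shifts all ratios alike.

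With the floor at the 75th percentile 4 members were measured, 2 of them higher, 0 past 1.5-fold, with a median of -0.050. Then 0 bZIP partners, 0 upstream regulators in either direction, 1 AP-1 target, 9 of all genes higher and 19 lower passed, and the immediate early median was 0.00080. With the floor at the 25th percentile 2 upstream regulators, 6 AP-1 targets, 3 immediate early genes and 806 of all genes were past 1.5-fold as higher and 287 of all genes as lower. With no floor, 4 bZIP partners were higher and 1 lower, 3 upstream regulators higher and 2 lower, 9 AP-1 targets higher and 2 lower, 3 immediate early genes higher, and 1985 of all genes higher and 1079 lower. Fosb then had a log2 ratio of 1.30, and 0.33 with a pseudocount of 50, from signals under both floors. With that pseudocount 0 upstream regulators were lower, 5 AP-1 targets and 1 immediate early gene higher, and 40 of all genes higher and 32 lower.

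At a threshold of 2-fold, 0 members, 0 upstream regulators in either direction, 0 AP-1 targets and 4 of all genes passed as higher, and 2 of all genes as lower. At a threshold of 0.32 in log2 ratio, 3 upstream regulators, 7 AP-1 targets, 1 Nrf2 target, 9 immediate early genes and 447 of all genes were higher, and 1 Nrf2 target, 1 immediate early gene and 553 of all genes lower. With the mean over probe sets 1 member was past 1.5-fold as higher, and 49 of all genes as lower. The mean of Fosl1 lay under the line, but it is a minimum because its dimmer set is a bound. The second probe set of a gene could be used for 3 members, 2 of them higher and 1 lower, with 0 past 1.5-fold. There, 0 bZIP partners, 0 upstream regulators in either direction, 1 Nrf2 target, 36 of all genes higher and 50 lower passed, and the immediate early median was 0.020. Where no cause is named, the cause was not tested.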
